A study of Mus musculus with 16 samples.

Results

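Transforming growth factor beta (TGF-β) is a secreted cytokine on which adult microglia depend, and mice in which microglia lack the ligand or its receptors lose much of their homeostatic transcriptome. The ligand is stored as a latent complex, and on microglia the surface protein NRROS anchors that complex. Active TGF-β assembles the type II and type I receptors, which phosphorylate SMAD2 and SMAD3, and these join SMAD4 and enter the nucleus. SMAD7 inhibits the receptors, while SKI and SKIL (SnoN) repress SMAD-driven transcription. The 10 genes described here are Tgfb1, Nrros, Tgfbr1, Tgfbr2, Smad2, Smad3, Smad4, Smad7, Ski and Skil. They were taken by symbol from the 55385 genes of the count table, with no cut on measured values. Earlier results of these data were known when they were chosen.

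RNA of brain cells sorted with CD11b magnetic beads was sequenced in 16 libraries from mice, with an age of 20 weeks on the labels, after removal of the meninges and choroid plexus. The paper names female mice among those obtained for its crosses and does not state the sex of the sequenced mice. Microglia carry CD11b on their surface, as do other myeloid cells. WT mice (Card9+/+ without the 5xFAD transgenes), Card9-/- mice, 5xFAD mice and Card9-/-5xFAD mice each gave 4 numbered replicates, and the labels do not say that the replicates were separate animals, so the p-values measure the spread between these samples. CARD9 is an intracellular adaptor downstream of innate immune receptors. 5xFAD mice express human amyloid precursor protein and presenilin 1 with familial Alzheimer's disease mutations from a neuronal promoter, so the microglia of these mice meet amyloid beta (Aβ) but do not make it from the transgenes. The comparisons ask how transcripts of the TGF-β pathway differ with the transgenes, with the Card9 genotype and with both.

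Between 2970148 and 19333325 reads were counted on genes per library, and levels are given as CPM (counts scaled to a common library size) after TMM scaling. All 10 microglia markers examined were detected in every library, with Cx3cr1 between 2384 and 6734 CPM and P2ry12 between 1764 and 6307 CPM. Itgax, a gene of microglia near plaques, lay between 78.7 and 215 CPM in the 8 transgenic libraries and between 6.93 and 14.3 CPM in the other 8. Card9 mRNA itself was 36.9 ± 16.3 CPM in WT, 29.1 ± 8.36 in Card9-/-, 27.7 ± 8.28 in 5xFAD and 20.2 ± 11.8 in Card9-/-5xFAD (mean ± SD, n = 4). These ranges overlapped, and counts summed over a whole gene do not show which exons were read, so the Card9 genotype rests on the labels. Along the first principal component (PC1, 59.8% of the variance of the 500 most variable genes) 4 libraries stood apart, 1 of each genotype: WT replicate 1, Card9-/- replicate 4, 5xFAD replicate 1 and Card9-/-5xFAD replicate 4. Their scores were between -55.5 and -25.1, against -9.55 to 36.5 in the other 12. Summed over 6 genes, choroid plexus or ependymal cell markers were at 1128 to 2497 CPM in these libraries against 3.06 to 858 in the other 12, with Foxj1 at no more than 3 counts throughout. Neutrophil markers, also 6 genes, were at 2092 to 6259 CPM against 485 to 2189, so that these ranges overlapped. The part of these cells in the results was not tested, and counts of calls are also given without the 4 libraries.

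Per length of exons, the receptors and the anchor were the most abundant of the 10 transcripts. In RPKM, which is the CPM divided by the exon length in kilobases, Tgfbr1 averaged 159 over the 16 libraries, Nrros 60.4, Tgfbr2 43.3, Ski 19.8, Skil 18.8, Smad3 9.32, Smad4 7.12, Smad7 6.86, Tgfb1 6.20 and Smad2 6.16. Tgfbr1 lay above 96.9% of the 13539 tested genes with a known length, Nrros above 91.8% and Tgfbr2 above 89.2%, whereas Smad2 lay above 55.9% and Tgfb1 above 56.1%. In each genotype the order fell into steps. Tgfbr1 was first in all 4 genotypes, with a range clear of the second gene in Card9-/-, 5xFAD and Card9-/-5xFAD but not in WT, where Nrros reached 116 RPKM and Tgfbr1 began at 93.3. Nrros and Tgfbr2 overlapped each other in every genotype. Ski and Skil also overlapped each other. Both lay below Tgfbr2 without overlap in WT, Card9-/- and 5xFAD, although Ski reached 21.8 RPKM in 5xFAD, where Nrros began at 20.9. Both lay above Smad3 without overlap in WT, Card9-/- and Card9-/-5xFAD. From Smad3 downward each gene overlapped the next in every genotype, while genes further apart in the order could be separate, as Smad3 (9.56 to 14.0 RPKM) was from Smad4 (4.87 to 8.81 RPKM) in Card9-/-.

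**Figure D1:**
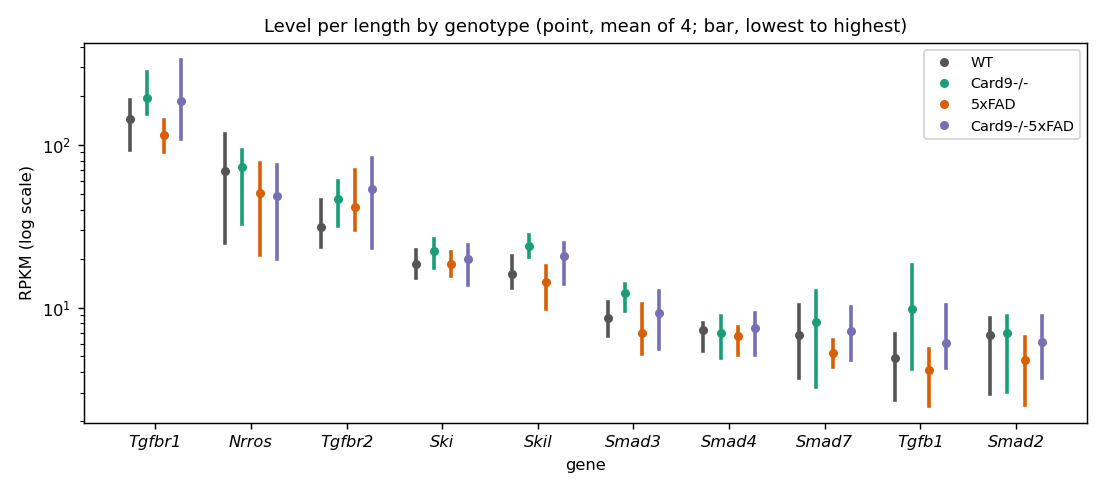
Level per length of the 10 genes by genotype, in RPKM on a log scale (points, means of 4 libraries; bars, lowest to highest library). Tgfbr1 averaged 159 RPKM over all libraries and the lowest gene, Smad2, 6.16 RPKM. Most bars of a gene overlap, but those of Tgfbr1 and Skil in Card9-/- lie above those in 5xFAD.

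The windows before the start of transcription are shown for the 3 most abundant of these genes and for Tgfbi, a classical TGF-β-induced gene whose level differed with the transgenes (below). They were taken from RefSeq (GRCm38.p6), run from 250 bases before to 50 bases after the annotated start, and are written 5′ to 3′ on the strand of the gene. Capitals mark CAGAC or its reverse complement GTCTG, the core of SMAD-bound elements. Of the 10 genes, 6 had a window in the table used, and Tgfbr1 had another window besides the one shown, for 7 windows in all. Smad2, Smad4, Smad7 and Skil are named only.
Nrros (chr16:32165545-32165844, minus strand): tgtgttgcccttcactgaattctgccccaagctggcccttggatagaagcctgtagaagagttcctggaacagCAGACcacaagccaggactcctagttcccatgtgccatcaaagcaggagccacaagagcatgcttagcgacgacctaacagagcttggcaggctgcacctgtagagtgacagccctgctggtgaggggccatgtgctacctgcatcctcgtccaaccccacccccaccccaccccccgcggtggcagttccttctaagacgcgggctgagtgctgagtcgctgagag
Tgfbr1 (chr4:47352972-47353271, plus strand): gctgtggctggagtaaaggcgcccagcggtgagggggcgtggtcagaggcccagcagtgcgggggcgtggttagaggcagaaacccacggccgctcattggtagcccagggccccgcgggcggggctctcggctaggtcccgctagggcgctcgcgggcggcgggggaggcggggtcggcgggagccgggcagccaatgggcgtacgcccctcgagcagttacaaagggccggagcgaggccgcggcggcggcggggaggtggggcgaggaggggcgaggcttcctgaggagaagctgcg
Tgfbr2 (chr9:116175314-116175613, minus strand): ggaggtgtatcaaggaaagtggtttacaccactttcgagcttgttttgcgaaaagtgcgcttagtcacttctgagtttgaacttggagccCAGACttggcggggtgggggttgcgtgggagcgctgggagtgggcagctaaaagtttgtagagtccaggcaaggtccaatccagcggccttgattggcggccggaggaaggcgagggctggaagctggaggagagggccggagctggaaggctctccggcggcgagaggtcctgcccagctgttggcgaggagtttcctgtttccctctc
Tgfbi (chr13:56609336-56609635, plus strand): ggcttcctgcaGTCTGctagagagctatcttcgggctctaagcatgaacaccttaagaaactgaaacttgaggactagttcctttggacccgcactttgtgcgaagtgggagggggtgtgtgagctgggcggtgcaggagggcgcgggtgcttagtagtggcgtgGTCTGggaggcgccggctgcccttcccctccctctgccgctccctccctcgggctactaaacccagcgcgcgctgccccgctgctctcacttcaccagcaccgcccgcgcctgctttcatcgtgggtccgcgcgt
The motif was present in 3 of the 7 windows of the 10 genes and in 49.6% of all 32851 windows of 300 bases in the table. It occurred once in the windows of Nrros and Tgfbr2 and at 2 places in that of Tgfbi. It was absent from the Tgfbr1 window shown and occurred once in the other Tgfbr1 window.

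Without use of the replicate numbers, 0 of the 10 genes passed an adjusted p of 0.1 in any of the 7 comparisons (edgeR's quasi-likelihood test over 14513 genes, Benjamini-Hochberg adjustment). In 5xFAD against WT, 0 of 10 passed where 2.09% of all tested genes did, and in Card9-/-5xFAD against Card9-/-, 0 of 10 passed against 1.97%. With the transgenes averaged over both Card9 genotypes, the comparison with the most calls, 0 of 10 passed against 11.3%. For the Card9 genotype, 0 of 10 passed in Card9-/- against WT (0% of all genes), in Card9-/-5xFAD against 5xFAD (0%), averaged over the transgenes (0.0276%) and in the interaction of genotype and transgenes (0%). At an unadjusted p under 0.05, the edgeR counts were 0 of 10 in both comparisons of transgenic with other mice, in their average and in the interaction, 2 (Tgfb1 and Skil) in Card9-/- against WT, 0 in Card9-/-5xFAD against 5xFAD and 3 (Tgfb1, Smad3 and Skil) in the averaged Card9 comparison. Over all genes, 10.8% had such a p in 5xFAD against WT, 12.2% in Card9-/-5xFAD against Card9-/-, 22.8% in their average, 0.537% in the interaction, 4.11% in Card9-/- against WT, 2.52% in Card9-/-5xFAD against 5xFAD and 9.12% in the averaged Card9 comparison. DESeq2 on the same libraries also called 0 of 10 in all 7. Depth differed between genes and libraries, from 70 counts of Tgfb1 to 25560 counts of Tgfbr1 in single libraries.

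The replicate ranges of all 10 genes overlapped in each of the 4 pairwise comparisons. Among all genes tested, ranges did not overlap for 8.04% in 5xFAD against WT, 7.01% in Card9-/-5xFAD against Card9-/-, 2.66% in Card9-/- against WT and 1.89% in Card9-/-5xFAD against 5xFAD. Without the 4 libraries of low PC1 score, 0 of 10 again passed in all 7 comparisons, although the averaged transgene comparison then called 34.5% of all genes. The lowest adjusted p there was 0.109, for Nrros.

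Taking the replicate numbers as pairs within each Card9 genotype changed the calls of the transgene comparisons. As 1 block over all 4 genotypes, the numbers gave 0 of 10 in each comparison (lowest adjusted p 0.204, edgeR). The averaged transgene comparison then called 12.9% of all genes. The labels do not say what a number stands for. Within each Card9 genotype, the deviations of same-numbered libraries from their group means had positive correlations (r of 0.27 to 0.71 without and 0.13 to 0.73 with the Card9-/- label). Differently numbered libraries were not compared. The libraries of low PC1 score carry the same number within each Card9 genotype (replicate 1 of WT and 5xFAD, replicate 4 of Card9-/- and Card9-/-5xFAD). With the number as a block within each Card9 genotype, a fit chosen after seeing the data, 4 of 10 genes passed in the averaged transgene comparison (Tgfb1, Nrros, Smad2 and Smad3, all lower), where 41.9% of all genes did. In Card9-/-5xFAD against Card9-/- 2 of 10 passed (Tgfb1 and Nrros, both lower), beside 20.4% of all genes. In 5xFAD against WT 0 of 10 passed, beside 16% of all genes, with Smad2 at an unadjusted p under 0.05. In the interaction 0 of 10 passed and 0 had an unadjusted p under 0.05 (edgeR). These shares are near or below those over all genes, and the Card9 comparisons lie between such blocks and have no value in this fit.

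**Figure D2:**
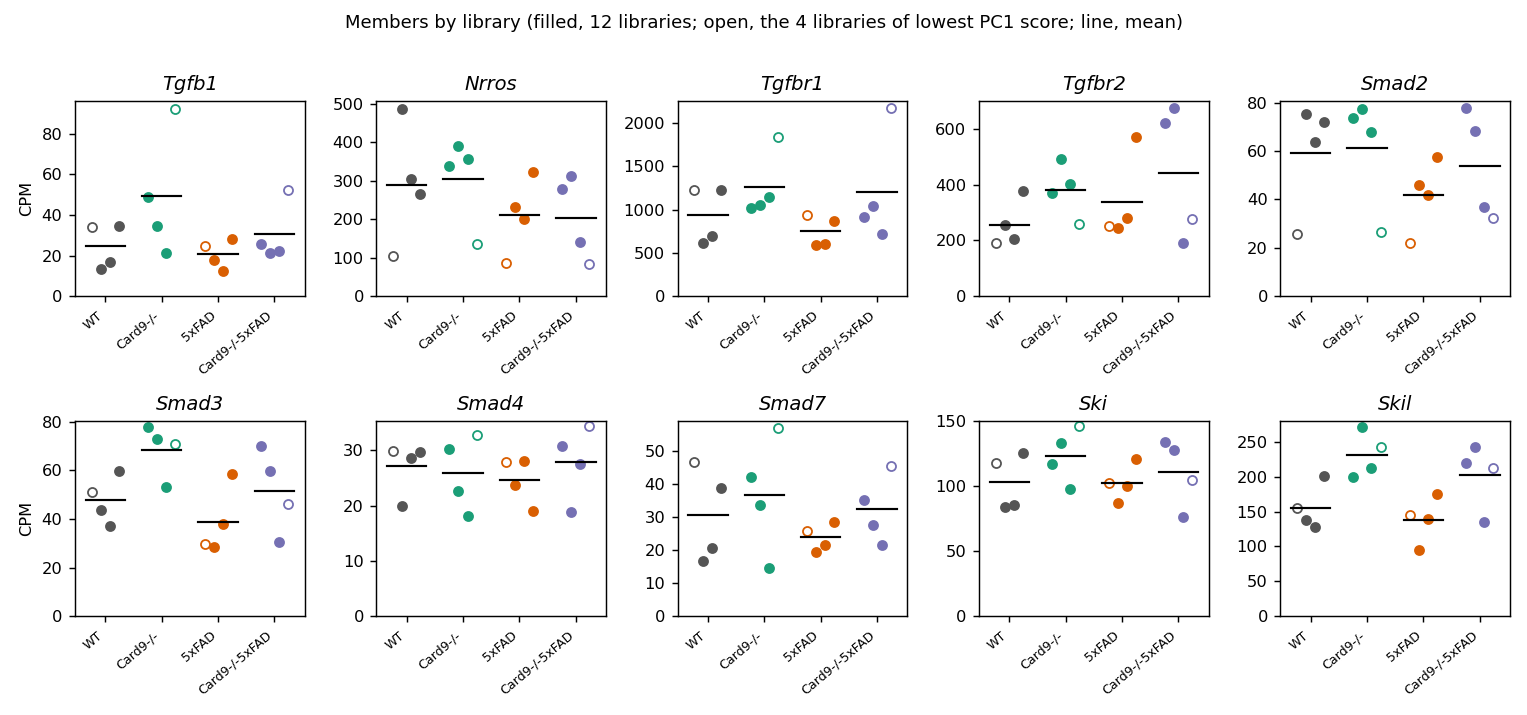
CPM of each of the 10 genes in each library by genotype, on linear axes from 0 (filled points, 12 libraries; open points, the 4 libraries of low PC1 score; lines, means of 4). Open points are the lowest of their genotype for Nrros and Smad2 and the highest of Card9-/- and Card9-/-5xFAD for Tgfb1, Tgfbr1, Smad4 and Smad7.

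Tgfb1 encodes the TGF-β1 ligand (chr7:25687002-25705077, plus strand, mm10). Its level was 34.0, 13.6, 17.0 and 34.7 CPM in WT replicates 1 to 4 and 48.8, 34.5, 21.0 and 91.9 CPM in Card9-/- replicates 1 to 4, and 24.9, 17.96, 12.6 and 28.2 CPM in 5xFAD and 25.6, 21.5, 22.4 and 52.1 CPM in Card9-/-5xFAD. Card9-/- replicate 4 was the highest of all and Card9-/-5xFAD replicate 4 was more than the other replicates of its genotype, both being libraries of low PC1 score. Averaged over Card9 genotypes, Tgfb1 had a log2 fold change of -0.47 ± 0.32 (SE, 95% interval -1.15 to 0.22) with the transgenes (adjusted p = 0.411, edgeR). Averaged over the transgenes it was 0.75 ± 0.32 (SE, 95% interval 0.07 to 1.44) in libraries labelled Card9-/- (adjusted p = 0.52, edgeR). It was the largest member difference of Card9-/- against WT, at 0.98 (adjusted p = 0.97, edgeR), and of Card9-/-5xFAD against Card9-/-, at -0.69 (adjusted p = 0.58). With the replicate block within Card9 genotypes, Tgfb1 fell by 0.39 on the log2 scale in the averaged transgene comparison (adjusted p = 0.0645, edgeR). In Card9-/-5xFAD against Card9-/- it fell by 0.59 in that fit (adjusted p = 0.0870).

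Nrros encodes the protein that holds latent TGF-β1 on the microglial surface (chr16:32142785-32165594, minus strand). It measured 104, 486, 304 and 266 CPM in WT replicates 1 to 4 and 339, 389, 355 and 135 CPM in Card9-/- replicates 1 to 4, and 87.4, 231, 200.2 and 323 CPM in 5xFAD and 279, 313, 141 and 82.5 CPM in Card9-/-5xFAD. The lowest value of each genotype was its library of low PC1 score. These 4 values, 82.5 to 135 CPM, lay below all of the other 12 libraries, 141 to 486 CPM. The 4 libraries were set apart by PC1 of the same counts, and the share of all genes that separate them was not computed. With the transgenes the log2 fold change was -0.52 ± 0.37 (SE, 95% interval -1.30 to 0.26, adjusted p = 0.423, edgeR), and with the Card9 label it was 0.01 ± 0.37 (SE, 95% interval -0.76 to 0.79, adjusted p = 0.992). In the other 12 libraries the transgene difference was -0.50, with the adjusted p of 0.109 given above. With the replicate block within Card9 genotypes, Nrros fell by 0.53 in the averaged transgene comparison (adjusted p = 0.0305, edgeR), the lowest adjusted p of the 10 genes there. In Card9-/-5xFAD against Card9-/- it fell by 0.66 in that fit (adjusted p = 0.0894).

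TGFBR1 is the type I receptor, which phosphorylates SMAD2 and SMAD3 (Tgfbr1, chr4:47353222-47414931, plus strand). Its transcript gave 1222, 609.5, 696 and 1227 CPM in WT replicates 1 to 4 and 1014, 1057, 1144 and 1839 CPM in Card9-/- replicates 1 to 4, and 933, 589, 605 and 874 CPM in 5xFAD and 912, 1037, 713 and 2173 CPM in Card9-/-5xFAD. The highest values were Card9-/-5xFAD replicate 4 and Card9-/- replicate 4, and WT split into replicates 1 and 4, at 1222 and 1227 CPM, and replicates 2 and 3, at no more than 696 CPM. The transgene difference was -0.19 ± 0.27 (SE, 95% interval -0.76 to 0.37) on the log2 scale (adjusted p = 0.703, edgeR) and the Card9 difference 0.56 ± 0.27 (SE, 95% interval -0.01 to 1.12, adjusted p = 0.55). Within transgenic mice the Card9 difference was 0.69 (adjusted p = 0.993, edgeR), the highest of the 10 genes in that comparison.

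TGFBR2 is the type II receptor, which binds the ligand first (Tgfbr2, chr9:116084293-116175360, minus strand). It was measured at 192, 254, 206 and 377 CPM in WT replicates 1 to 4 and 370.3, 492, 402 and 259 CPM in Card9-/- replicates 1 to 4, and at 253, 246, 281 and 571 CPM in 5xFAD and 620.4, 676, 191 and 277 CPM in Card9-/-5xFAD. Card9-/-5xFAD held both the highest and the lowest library of the series, and 5xFAD replicate 4 was above the other 5xFAD replicates. Tgfbr2 was the single member with a positive transgene difference, 0.30 ± 0.29 (SE, 95% interval -0.32 to 0.92, adjusted p = 0.576, edgeR). The Card9 difference was 0.48 ± 0.29 (SE, 95% interval -0.15 to 1.10, adjusted p = 0.612).

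SMAD2 and SMAD3 are the receptor-activated SMADs of the TGF-β branch. Smad2, on chromosome 18, was counted at 25.9, 75.4, 63.9 and 72.2 CPM in WT replicates 1 to 4 and 73.6, 77.4, 67.8 and 26.5 CPM in Card9-/- replicates 1 to 4, and at 22.0, 46.1, 41.7 and 57.6 CPM in 5xFAD and 77.9, 68.2, 37.0 and 32.4 CPM in Card9-/-5xFAD. As for Nrros, the 4 libraries of low PC1 score (22.0 to 32.4 CPM) lay below the other 12 (37.0 to 77.9 CPM). How many of all genes separate these libraries in the same way was not computed. Its log2 differences were -0.35 ± 0.30 (SE, 95% interval -0.98 to 0.28) with the transgenes (adjusted p = 0.519, edgeR) and 0.21 ± 0.30 (SE, 95% interval -0.42 to 0.84) with the Card9 label (adjusted p = 0.814). Smad2 fell by 0.33 with the transgenes when the replicate number was a block within Card9 genotypes (adjusted p = 0.0914, edgeR).

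Smad3 (chr9:63646767-63757994, minus strand) gave 51.2, 43.7, 37.0 and 59.6 CPM in WT replicates 1 to 4 and 77.7, 72.7, 53.0 and 70.7 CPM in Card9-/- replicates 1 to 4, and 29.7, 28.6, 37.8 and 58.6 CPM in 5xFAD and 69.9, 59.8, 30.8 and 46.1 CPM in Card9-/-5xFAD. Of the Card9-/- libraries, 3 exceeded every WT library, and replicate 3 did not. The transgene difference, -0.36 ± 0.21 (SE, 95% interval -0.80 to 0.09), had the lowest adjusted p of the 10 genes for that comparison, 0.333 (edgeR). Under the replicate block within Card9 genotypes Smad3 fell by 0.40 (adjusted p = 0.0415, edgeR). With the Card9 label the difference was 0.47 ± 0.21 (SE, 95% interval 0.02 to 0.91, adjusted p = 0.532).

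SMAD4 is the common partner of the activated SMADs, and its transcript, from chromosome 18, varied least among libraries. It stood at 29.9, 20.0, 28.7 and 29.7 CPM in WT replicates 1 to 4 and 30.3, 22.7, 18.1 and 32.7 CPM in Card9-/- replicates 1 to 4, and at 27.9, 23.7, 28.1 and 19.1 CPM in 5xFAD and 30.9, 18.9, 27.5 and 34.4 CPM in Card9-/-5xFAD. The highest library had 1.91 times the level of the lowest, compared with 1.92 times for Ski and 7.30 times for Tgfb1. The log2 differences were -0.01 ± 0.19 (SE, 95% interval -0.41 to 0.38) with the transgenes (adjusted p = 0.976, edgeR) and 0.05 ± 0.19 (SE, 95% interval -0.34 to 0.45) with the Card9 label (adjusted p = 0.935). A pseudogene on the other strand overlaps Smad4 in the annotation, and the strand setting of the counting was not given in the sources used here, so reads of the pair cannot be told apart.

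Smad7 is induced by TGF-β and encodes the inhibitory SMAD of the pathway, so its transcript is often read as a sign of signalling. On chromosome 18, it showed 46.7, 16.7, 20.7 and 38.7 CPM in WT replicates 1 to 4 and 42.0, 33.7, 14.7 and 56.9 CPM in Card9-/- replicates 1 to 4, and 25.9, 19.6, 21.6 and 28.5 CPM in 5xFAD and 35.2, 27.7, 21.5 and 45.7 CPM in Card9-/-5xFAD. The 5xFAD libraries were the least spread (19.6 to 28.5 CPM) and overlapped each of the other genotypes. Differences were -0.27 ± 0.28 (SE, 95% interval -0.86 to 0.33) with the transgenes (adjusted p = 0.606, edgeR) and 0.35 ± 0.28 (SE, 95% interval -0.25 to 0.94) with the Card9 label (adjusted p = 0.677).

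SKI and SKIL are related co-repressors that bind SMADs in the nucleus. Ski (chr4:155154075-155222592, minus strand) measured 118, 84.2, 85.5 and 126 CPM in WT replicates 1 to 4 and 117, 133, 97.9 and 147 CPM in Card9-/- replicates 1 to 4, and 103, 87.3, 100.4 and 121 CPM in 5xFAD and 134, 128, 76.5 and 105 CPM in Card9-/-5xFAD. No pair of genotypes was separate, and the differences were -0.08 ± 0.18 (SE, 95% interval -0.45 to 0.29) with the transgenes (adjusted p = 0.821, edgeR) and 0.18 ± 0.18 (SE, 95% interval -0.19 to 0.56) with the Card9 label (adjusted p = 0.722).

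Skil (chr3:31095058-31122577, plus strand), itself a TGF-β-induced gene, measured 155, 138, 128 and 201 CPM in WT replicates 1 to 4 and 199, 270.3, 213 and 242 CPM in Card9-/- replicates 1 to 4, and 145, 94.996, 139.8 and 175 CPM in 5xFAD and 219, 242, 135 and 213 CPM in Card9-/-5xFAD. In Card9-/-, 3 libraries exceeded every WT library and replicate 1 did not, and in Card9-/-5xFAD, 3 libraries exceeded every 5xFAD library and replicate 3 did not. Of the 10 genes it had the lowest unadjusted p for the averaged Card9 comparison, with a difference of 0.56 ± 0.19 (SE, 95% interval 0.16 to 0.96) and an adjusted p of 0.496 (edgeR). The transgene difference was -0.18 ± 0.19 (SE, 95% interval -0.58 to 0.22, adjusted p = 0.606).

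**Figure D3:**
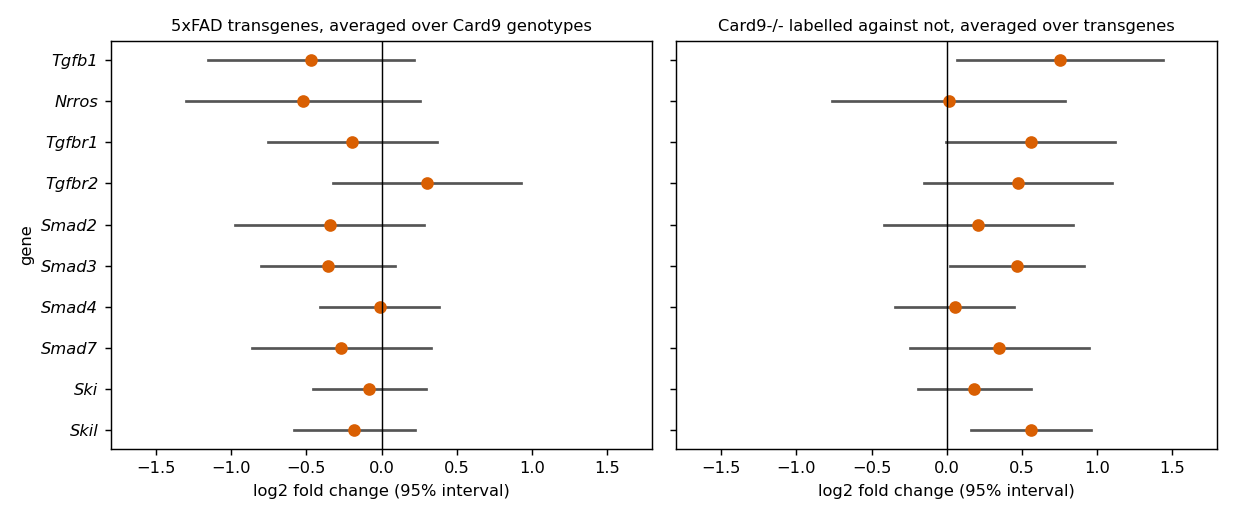
Log2 fold changes of the 10 genes with 95% intervals from edgeR, for the 5xFAD transgenes averaged over Card9 genotypes (left) and for the Card9-/- label averaged over transgenes (right); the vertical line marks no difference. All 10 intervals on the left cross 0, and on the right those of Tgfb1, Smad3 and Skil lie above 0 before adjustment over all genes.

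As a list, 9 of the 10 genes were lower with the transgenes (median log2 fold change -0.23), beside a median of -0.15 over all genes tested, of which 38.3% were higher, and the signs of Smad4 and Ski turned under other filters or scalings. With the Card9 label all 10 were higher (median 0.41), beside a median of 0.13 over all genes, of which 62.4% were higher, although Nrros and Smad4 turned negative with DESeq2, and Nrros and Smad2 with the length slope described next as a covariate. Of 30 early response genes, which rise within minutes of cell stress, 28 were higher with the Card9 label (median 0.36). By edgeR 0 of the 30 passed and 6 had an unadjusted p under 0.05. The slope of expression on the log2 of summed exon length also differed between libraries, from -0.224 to 0.285. Its means were 0.00927 in WT, 0.110 in Card9-/-, -0.107 in 5xFAD and -0.0125 in Card9-/-5xFAD. The part of these in the members' differences was not tested beyond fits that take each as a covariate. With the early response level as a covariate, the members' median Card9 difference was 0.19 in place of 0.41, and 0.13 in place of 0.40 in Card9-/-5xFAD against 5xFAD. The median over all genes shrank as well, to 0.065 in place of 0.127 and to 0.047 in place of 0.137. By edgeR 1 of 10 genes (Skil) then had an unadjusted p under 0.05 in the averaged Card9 comparison, as did 553 of the 14513 genes tested. With the length slope as a covariate, Tgfbr2 rose with the transgenes (0.64, adjusted p = 0.0188, edgeR) and 1 of 10 genes passed, where 24.5% of all genes did. With 1 surrogate variable, Tgfb1 fell instead (-0.62, adjusted p = 0.0609, edgeR), and 31.5% of all genes passed.

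In Card9-/-5xFAD against 5xFAD, the differences of the 10 genes ran from -0.05 (Nrros) to 0.69 (Tgfbr1), and in Card9-/- against WT from -0.07 (Smad4) to 0.98 (Tgfb1). In 5xFAD against WT they ran from -0.50 (Smad2) to 0.39 (Tgfbr2), and in Card9-/-5xFAD against Card9-/- from -0.69 (Tgfb1) to 0.21 (Tgfbr2). These comparisons share their groups, so they are not independent. The interaction, which asks whether the transgene difference depended on Card9, lay between -0.45 ± 0.64 (SE, 95% interval -1.82 to 0.92) for Tgfb1 and 0.32 ± 0.59 (SE, 95% interval -0.94 to 1.58) for Smad2.

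**Figure D4:**
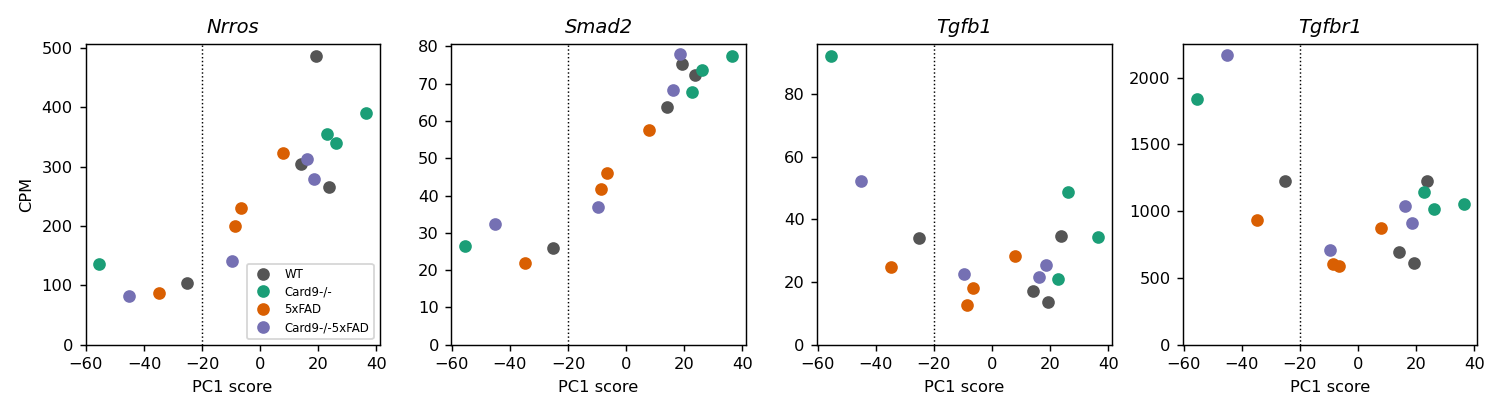
CPM of Nrros, Smad2, Tgfb1 and Tgfbr1 against the PC1 score of each library, coloured by genotype; the dotted line separates the 4 libraries of low score. Nrros and Smad2 are lowest in these 4 (82.5 to 135 and 22.0 to 32.4 CPM), and Tgfbr1 reaches its 2 highest values there (1839 and 2173 CPM).

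Single genes of the wider pathway passed with the transgenes. Of 51 further genes of TGF-β, activin and BMP signalling on a list written from general knowledge, 39 passed the filter on low counts. The list was written with earlier results of these data known. In 5xFAD against WT 1 of the 39 passed, beside 2.09% of all genes (Bambi, higher), in Card9-/-5xFAD against Card9-/- 2 passed, beside 1.97% (Bambi, higher, and Tgfbr3, lower), and in the averaged comparison 5 passed, beside 11.3% of all genes (Bambi and Fkbp1a higher, Tgfbr3, Bmp2 and Acvr2a lower). DESeq2 called 2, 4 and 7 of the 39 in these comparisons, beside 4.16%, 5.88% and 16.8% of all genes. None passed in a Card9 comparison or in the interaction by edgeR or DESeq2. At an unadjusted p under 0.05 the edgeR counts were 0 of 39 in Card9-/- against WT, in Card9-/-5xFAD against 5xFAD and in the interaction, and 2 of 39 in the averaged Card9 comparison, where 9.12% of all genes had such a p. With the replicate block within Card9 genotypes, 8 of 39 passed in 5xFAD against WT (16% of all genes), 9 in Card9-/-5xFAD against Card9-/- (20.4%) and 16 in the average (41.9%). Bambi, Bmp2, Fkbp1a and Acvr2a passed in both pairwise comparisons there, and Tgfbr3 in Card9-/-5xFAD against Card9-/-.

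Bambi encodes a decoy receptor that lacks a kinase domain, blocks the type I receptors and is itself induced by TGF-β. It was at 2.99, 7.87, 5.85 and 4.92 CPM in WT replicates 1 to 4 and 3.96, 5.17, 5.27 and 2.62 CPM in Card9-/- replicates 1 to 4, and at 23.7, 34.8, 36.3 and 35.4 CPM in 5xFAD and 32.8, 29.8, 33.5 and 5.61 CPM in Card9-/-5xFAD. All 4 5xFAD libraries were above all WT libraries, and 3 of the 4 Card9-/-5xFAD libraries were. Card9-/-5xFAD replicate 4, at 5.61 CPM, lay within the WT range and little above the highest Card9-/- library, at 5.27 CPM. Bambi rose by 2.58 ± 0.45 (SE, 95% interval 1.62 to 3.53) on the log2 scale in 5xFAD against WT (adjusted p = 0.0059, edgeR) and by 2.55 ± 0.45 (SE, 95% interval 1.59 to 3.52) in Card9-/-5xFAD against Card9-/- (adjusted p = 0.00684). The difference between these effects was -0.02 ± 0.63 (SE, 95% interval -1.36 to 1.32), with an adjusted p of 1. Without Card9-/-5xFAD replicate 4 the second rise was 2.87.

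Tgfbr3 encodes betaglycan, a co-receptor that presents TGF-β. Its counts were low, from 1 to 83 per library, which leaves the level in single transgenic libraries uncertain. They gave 0.528, 1.28, 0.662 and 3.53 CPM in WT replicates 1 to 4 and 1.68, 3.43, 1.24 and 6.22 CPM in Card9-/- replicates 1 to 4, and 0.607, 0.548, 0.180 and 0.409 CPM in 5xFAD and 0.493, 0.342, 0.174 and 0.801 CPM in Card9-/-5xFAD. No transgenic library exceeded 0.801 CPM. It fell in Card9-/-5xFAD against Card9-/- (-2.82 ± 0.73 SE, 95% interval -4.36 to -1.28, adjusted p = 0.080, edgeR) and in the average (-2.29, adjusted p = 0.0125), and the value in 5xFAD against WT was -1.75 (adjusted p = 0.354). The call in Card9-/-5xFAD against Card9-/- was lost when any 1 of 8 libraries was left out (WT replicate 2, Card9-/- replicates 1 and 2, 5xFAD replicates 2 and 3, and Card9-/-5xFAD replicates 1, 2 and 3), with adjusted p of 0.106 to 0.247.

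Bmp2, a ligand of the BMP branch, fell in the averaged comparison (-1.57 ± 0.33 SE, 95% interval -2.28 to -0.87, adjusted p = 0.00943, edgeR). Its values were 7.22, 9.16, 4.19 and 11.7 CPM in WT replicates 1 to 4 and 10.2, 22.5, 9.84 and 17.0 CPM in Card9-/- replicates 1 to 4, and 2.12, 2.06, 1.26 and 6.27 CPM in 5xFAD and 5.13, 5.25, 3.48 and 4.41 CPM in Card9-/-5xFAD. Acvr2a, an activin type II receptor, also fell (-0.83 ± 0.25 SE, 95% interval -1.37 to -0.30, adjusted p = 0.0601), from 6.34 to 20.9 CPM in the libraries without transgenes to 4.86 to 10.8 CPM in those with them, so the ranges overlapped. The Acvr2a call was lost, with adjusted p of 0.105 to 0.150, when WT replicate 4, Card9-/- replicate 2 or 3, 5xFAD replicate 2 or 3 or Card9-/-5xFAD replicate 3 was left out. Fkbp1a encodes FKBP12, which holds the type I receptors inactive, and it rose (0.67 ± 0.17 SE, 95% interval 0.32 to 1.02, adjusted p = 0.0242). Its lowest transgenic library, 333 CPM, was above the highest library without transgenes, 328 CPM, and processed copies of Fkbp1a elsewhere in the genome make its counts uncertain. The other most abundant genes of the list were Pmepa1, Tgif1, Tab2 and Itgav. None of these passed in any of the 7 comparisons by edgeR without pairing or covariates and with all 16 libraries. In the averaged transgene comparison Itgav was called lower by DESeq2, and Itgav and Tab2 were called lower with 1 surrogate variable.

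Genes that answer to the pathway were examined next, in 2 lists written from general knowledge, with earlier results of these data known. The shares of calls in these lists, set beside those over all genes, are therefore descriptions only. Of 18 genes that microglia need TGF-β to express, P2ry12, Tmem119, Sall1 and Siglech among them, 0 passed in any of the 7 comparisons by edgeR. At an unadjusted p under 0.05, 3 of 18 did so in the averaged transgene comparison, beside 22.8% of all genes, 2 in the averaged Card9 comparison, beside 9.12%, 1 in each pairwise comparison of transgenic with other mice, and 0 in the rest. DESeq2 called 3 (C1qa and Sparc higher, Sall1 lower) in the averaged transgene comparison, beside 16.8% of all genes, and 0 in the others. With the replicate block within Card9 genotypes, 9 of 18 passed in that average, beside 41.9% of all genes. In that fit 3 passed in 5xFAD against WT, beside 16%, and 3 in Card9-/-5xFAD against Card9-/-, beside 20.4%. The median log2 fold change of the 18 genes with the transgenes was -0.15, equal to the median over all genes. Their summed level was 19183 to 24749.7 CPM in the 4 libraries of low PC1 score and 26311 to 46426 CPM in the other 12, with no overlap. PC1 was drawn from the same counts, and no share over all genes was computed for this split. Without those 4 libraries 8 of 18 passed, where 34.5% of all genes did. Among them, C1qa (0.71), Sparc (0.54) and Fcrls (0.38) were then higher and Slc2a5 (-0.64), P2ry13 (-0.61), Tmem119 (-0.60) and Sall1 (-0.49) lower, with adjusted p of 0.0120 to 0.0781 (edgeR).

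Of 14 genes described as direct targets of SMADs, 12 were tested. By edgeR 1 passed in 5xFAD against WT, beside 2.09% of all genes, 1 in Card9-/-5xFAD against Card9-/-, beside 1.97%, and 3 in their average, beside 11.3%. DESeq2 called 3, 2 and 4 of the 12 in these comparisons, beside 4.16%, 5.88% and 16.8% of all genes. In the Card9 comparisons and the interaction 0 passed by edgeR or DESeq2, with 2 of 12 at an unadjusted p under 0.05 in the averaged Card9 comparison (9.12% of all genes) and 0 in the others. Tsc22d1, also called TGF-β-stimulated clone 22, passed in both comparisons with transgenic mice. It was at 21.1, 32.9, 27.7 and 29.7 CPM in WT replicates 1 to 4 and 25.9, 18.4, 23.1 and 34.7 CPM in Card9-/- replicates 1 to 4, and at 81.9, 101, 108 and 88.9 CPM in 5xFAD and 96.6, 134, 103 and 34.4 CPM in Card9-/-5xFAD. It rose by 1.77 ± 0.34 (SE, 95% interval 1.05 to 2.49) in 5xFAD (adjusted p = 0.0119, edgeR) and by 1.86 ± 0.34 (SE, 95% interval 1.14 to 2.59) in Card9-/-5xFAD (adjusted p = 0.00908), and Card9-/-5xFAD replicate 4 alone was not above the Card9-/- libraries. The latter call was lost when the 2 groups compared were fitted alone (adjusted p = 0.146). In the averaged comparison Bhlhe40, a transcriptional repressor, rose as well (1.82, adjusted p = 0.016), although Card9-/-5xFAD replicates 3 and 4, at 11.3 and 8.01 CPM, lay among the mice without transgenes. Tgfbi, which encodes a secreted matrix protein, fell (-1.04 ± 0.24 SE, 95% interval -1.54 to -0.54, adjusted p = 0.0143). Its values were 84.0, 126, 98.1 and 119 CPM in WT replicates 1 to 4 and 126, 135, 139.6 and 103 CPM in Card9-/- replicates 1 to 4, and 29.7, 41.3, 44.1 and 76.5 CPM in 5xFAD and 86.4, 88.4, 33.4 and 56.1 CPM in Card9-/-5xFAD, so both transgenic groups lay below their counterparts without overlap. These target genes were named after their values were seen.

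**Figure D5:**
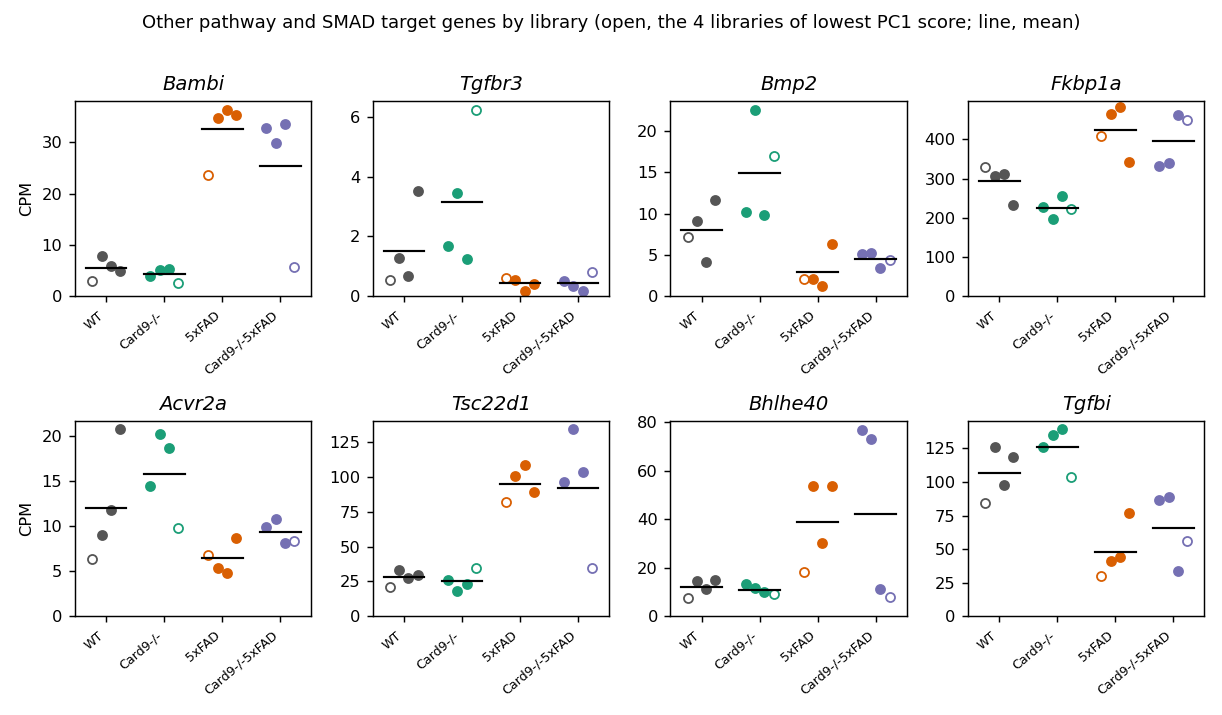
CPM by library and genotype of 8 pathway or SMAD target genes that passed in the averaged transgene comparison, on linear axes from 0 (open points, the 4 libraries of low PC1 score; lines, means of 4). Bambi and Tsc22d1 are high in 7 of 8 transgenic libraries, and every 5xFAD library lies below every WT library for Tgfbi.

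Markers of other cells were examined in the averaged transgene comparison, where 11.3% of all genes passed. None of the tested neuron, oligodendrocyte, choroid plexus or ependymal, B cell and T or NK cell markers did. Of 7 border-associated macrophage markers, 4 fell with the transgenes (Mrc1, Lyve1, Cd163 and F13a1), and the summed level of the 7 was 1064 to 1732 CPM in WT, 981 to 1940.2 in Card9-/-, 608 to 847 in 5xFAD and 420.3 to 1825 in Card9-/-5xFAD. The highest library of each genotype was its library of low PC1 score. In Card9-/-5xFAD the others were at 420.3, 558 and 819 CPM. Of 8 endothelial markers 1 fell (Pecam1), of 4 tested pericyte markers 1 fell (Pdgfrb), of 6 neutrophil markers 1 fell (Ly6g) and of 5 tested monocyte markers 1 fell (Ccr2), while 2 of 8 astrocyte markers (Gfap and Aqp4) and 2 of 10 microglia markers (Trem2 and C1qb) rose. Their part in the falls of Tgfbi, Tgfbr3, Bmp2 and Acvr2a was not tested, and in sorted bulk samples fewer cells of a type and less RNA per cell cannot be told apart. Without the 4 libraries of low PC1 score, 12 of 39 further pathway genes passed in the averaged transgene comparison, beside 34.5% of all genes, 4 in 5xFAD against WT, beside 7.97%, and 7 in Card9-/-5xFAD against Card9-/-, beside 16.7%. Of the 12 SMAD targets 6, 4 and 6 then passed in these comparisons, with Bhlhe40 (adjusted p = 0.0677 and 0.0207) and Tgfbi (0.0959 and 0.0961) among them in both pairwise comparisons. With the replicate block within Card9 genotypes 6, 3 and 5 SMAD targets passed, beside 41.9%, 16% and 20.4% of all genes. Bhlhe40 and Tgfbi were again among them in both pairwise comparisons. In the averaged comparison of 12 libraries, the 5 pathway genes above passed together with Gdf15, Tgfb2 and Tgif1 (higher) and Itgav, Smad1, Trim33 and Usp15 (lower). Tgfb2, a sister ligand of Tgfb1, had a log2 fold change of 2.34 (adjusted p = 0.000389, edgeR). Its counts were low, with no more than 48 in any library, which leaves its level in single libraries uncertain.

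The genes whose log2 CPM followed each member most closely over the 16 libraries differed from member to member. Nrros was matched best by Dolpp1 (Pearson r = 0.993, Spearman rho = 0.997), Ralb (0.988 and 0.935) and Ubap1 (0.987 and 0.935). Smad2 was matched by Zscan21 (r = 0.981), Tent2 (0.980) and Slc25a46 (0.976), Smad7 by Adrb1 (0.966), Npepps (0.960) and Mknk2 (0.948), and Smad3 by Sec14l1 (0.965), Pxn (0.958) and Abhd2 (0.957). For Tgfbr2 the closest were Arsb (0.958), Tbc1d8 (0.958) and Stt3b (0.957), for Tgfb1 Ccdc85c (0.955), Camsap1 (0.941) and Cnot3 (0.932), for Skil Acsl4 (0.952), Lig3 (0.935) and Bicral (0.924), for Tgfbr1 Odf2 (0.942), Tut7 (0.940) and Stag2 (0.940), and for Ski Ppp6r1 (0.937), Xpo1 (0.931) and Map3k10 (0.921). Smad4 was matched by Fbxo11 (0.946), Ppm1a (0.880) and Xiap (0.873). Ppm1a, which encodes a phosphatase of activated SMADs, was the single pathway gene among these 30. The values are descriptions over libraries that share depth and composition. Over the 12 libraries without low PC1 scores, r of these pairs ran from 0.836 (Tgfb1 and Cnot3) to 0.982 (Nrros and Dolpp1).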

How the data were processed

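The authors aligned reads with HISAT2 to mm10, used SAMtools and counted reads per gene with HTSeq, and they deposited raw counts for all 16 libraries in 1 table. Settings, strand and tool versions are not given in the sources used here. Counts were tested with edgeR 4.0.16 (R 4.3.3). Genes were kept by filterByExpr at a minimum count of 10 (14513 of 55385), scaled by TMM, and fitted in 1 quasi-likelihood model of all 4 groups without covariates, with Benjamini-Hochberg adjustment over all tested genes and a threshold of 0.1. CPM use TMM-scaled library sizes, and RPKM divide by summed exon length of GENCODE M21 (GRCm38), available for 13539 tested genes. Totals per library ran from 2970148 to 19333325 counts, and intervals are 95%. Alternatives were DESeq2 1.42.0 and its size factors, other filters, a threshold of 0.05, the groups compared alone, 1 surrogate variable (sva 3.50.0), the replicate number as a block, an early response covariate and each library left out. Added after seeing the data were the replicate number as a block within each Card9 genotype, a length slope covariate and 12 libraries without those of low PC1 score. The genes described and the gene lists were chosen with earlier results of these data known.

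Genes named are the 10 members, pathway genes past the threshold or among the 5 of highest mean CPM, TGF-β-dependent genes past the threshold, and for each member the 3 genes of highest Pearson r in log2 CPM over 16 libraries (prior count 2). Other genes were named after their values were seen. Whether replicate numbers pair libraries was checked by the correlation of same-numbered libraries' deviations from their group means. All 4 numbers were over 0.1 for WT with 5xFAD (0.27 to 0.71) and for Card9-/- with Card9-/-5xFAD (0.13 to 0.73), but not for groups of different Card9 genotype. The pairing within Card9 genotypes thus comes from the data and not from the labels. A single pair across Card9 genotypes reached 0.61 (replicate 2 of WT and Card9-/-5xFAD). Libraries of different number were not compared, so these correlations have no baseline. No replicates of a group were copies, since counts of each of 24 pairs differed by more than sampling noise (chi-square per degree of freedom of 6.28 or more). The fitting scripts were tested on simulated data. The value of 1 gene of the TGF-β-dependent list is not reported here.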

Additional observations from a re-analysis of the deposited data

Results flagged for a closer look

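Among 40 sets of 4 libraries (10 genes in 4 genotypes), 4 held 1 library far from the other 3 by Dixon's test, and chance alone gives about 1 in 20. Tgfb1 was 52.1 CPM in Card9-/-5xFAD replicate 4, against 21.5 to 25.6 CPM in the others of that genotype. Tgfbr1 was 1839 CPM in Card9-/- replicate 4, against 1014 to 1144 CPM. Both libraries are among the 4 of low PC1 score. Tgfbr2 was 571 CPM in 5xFAD replicate 4, against 246 to 281 CPM, and Smad4 was 20.0 CPM in WT replicate 2, against 28.7 to 29.9 CPM.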

How the results depend on the processing

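With the replicate number as a block within each Card9 genotype, 2 of the 10 genes passed in Card9-/-5xFAD against Card9-/-, beside 20.4% of all genes (edgeR). In the averaged transgene comparison 4 passed, beside 41.9%. Tgfbr2 was the 1 gene that passed with the length slope covariate. It did so in 5xFAD against WT (0.77, adjusted p = 0.0785, edgeR), beside 6.31% of all genes, and in the averaged transgene comparison, beside 24.5%. Tgfb1 was the 1 that passed with 1 surrogate variable. It did so in Card9-/-5xFAD against Card9-/- (-0.90, adjusted p = 0.0992, edgeR), beside 12.5% of all genes, and in the averaged transgene comparison, beside 31.5%. In the other alternatives and comparisons 0 of the 10 passed. The causes were not tested. Signs of log2 differences turned as follows, none of them past the threshold. With the transgenes, Smad4 was 0.0636 with DESeq2 size factors, 0.00926 with no filter, 0.14 with at least 10 counts in every library, 0.0659 with DESeq2, 0.000434 with the early response covariate and 0.0229 in 12 libraries. Ski was 0.0407 with at least 10 counts in every library, 0.00439 with the early response covariate and 0.0430 in 12 libraries, and Smad2 was 0.14 with the length slope. With the Card9 label, Nrros was -0.0562 with DESeq2 size factors and with DESeq2, -0.11 with at least 10 counts in every library, -0.0184 with 1 surrogate variable, -0.0968 with the early response covariate, -0.00622 in 12 libraries and -0.48 with the length slope, Smad2 was -0.22 with the length slope, and Smad4 was -0.0606 with at least 10 counts in every library, -0.00595 with DESeq2 and -0.0111 in 12 libraries. Smad4 in Card9-/- against WT was 0.0292 with the length slope.

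With each library left out in turn, 0 of the 10 genes passed in any comparison, and 24 of the 70 log2 differences (10 genes in 7 comparisons) changed sign at least once, each of at most 0.45 in size. Of the differences given in the report, Tgfbr2 ran from -0.0761 to 0.46 in Card9-/-5xFAD against Card9-/-, Smad4 ran from -0.20 to 0.0653 in Card9-/- against WT, Nrros ran from -0.34 to 0.22 in Card9-/-5xFAD against 5xFAD, and Tgfb1 ran from -0.82 to 0.0305 in the interaction. Smad4 ran from -0.0843 to 0.21 in the averaged transgene comparison, Ski ran from -0.13 to 0.0382 in the averaged transgene comparison, Nrros ran from -0.13 to 0.20 in the averaged Card9 comparison, and Smad4 ran from -0.14 to 0.12 in the averaged Card9 comparison.

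With the replicate number as 1 block over all 4 genotypes, 0 of the 10 genes passed in each comparison, with 0.204 as the lowest adjusted p (edgeR). The averaged transgene comparison then called 1871 of all genes, and Bmp2 passed in 5xFAD against WT (adjusted p = 0.0633) and in Card9-/-5xFAD against Card9-/- (0.0487). Over all alternatives the averaged transgene comparison called 2 to 16 of the further pathway genes, 0 to 9 of the TGF-β-dependent genes, 3 to 6 of the SMAD targets and 920 to 6078 of all genes. In Card9-/-5xFAD against Card9-/-, 96 to 2966 of all genes were called, in 5xFAD against WT 164 to 2322 and in the averaged Card9 comparison 0 to 75. With no filter on low counts, Fkbp1a (adjusted p = 0.153, edgeR) and Acvr2a (0.159) no longer passed. The median of all genes in the averaged transgene comparison was -0.15 with TMM and -0.08 with DESeq2 size factors. Depth limits Tgfbr3, Bmp2 and Bambi most, with 1, 7 and 8 counts in their lowest libraries.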
